A study of Arabidopsis thaliana with 36 samples.

Results

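The genes described here are the 100 protein-coding or pseudogene loci without a gene symbol whose transcripts were most depleted between 12 and 36 h post-gravistimulation (hpg) in root bends of wild-type (WT) Arabidopsis. The count table held 37973 rows, of which 27014 carried a locus and no symbol, and 7949 of these had a mean of at least 5 CPM (the count divided by the library total, times 1e+06) in the 3 WT libraries of 12 hpg. Members were the 100 of these 7949 with the lowest log2 ratio of the mean CPM at 36 hpg to that at 12 hpg, with 0.5 CPM added to both means. The members were therefore chosen on the 6 WT libraries of 12 and 36 hpg, and their fall between these times in WT is a description of the choice and not a result. All 100 had enough reads to enter the tests.

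RNA had been sequenced from Columbia-0 (WT) and *puchi-1*, a mutant in PUCHI, an AP2/ERF transcription factor that acts in the early lateral root primordium (LRP). Seedlings were 4 days old, grew in continuous light on vertical plates, and were turned so that the root bent and a lateral root started in the bend. Bends, which hold the LRP with all surrounding tissues, were cut 12, 18, 24, 30 or 36 h after turning from more than 400 seedlings per library, and ‘No LR’ segments, cut from the mature root between the bend and the shoot of the turned seedlings, served as the reference without primordium. Each of the 12 groups of genotype and tissue had 3 libraries, called biological replicates 1 to 3 in the labels, 36 in all. The labels place the harvest of the ‘No LR’ segments at 9 h, which differs from the time in the study's methods.

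Library totals, in units of 1e+06 counts, lay between 31.7 and 121.6. The ‘No LR’ libraries of replicate 1 stood apart from the other ‘No LR’ libraries in both genotypes. In WT ‘No LR’ segments the members took 0.921% of the counts in replicate 1, against 0.190% and 0.0634% in the other 2 libraries, and in *puchi-1* they took 0.720% in replicate 1 against 0.106% and 0.105%. A fit across all 36 libraries shares its estimate of the spread with these groups, so that counts of members are given both from that fit and from a fit of the 30 bend libraries alone, which was added after this spread was seen. PUCHI itself was counted in every library and its level did not overlap between the genotypes in any of the 6 pairs of groups, with 14 to 18.8 CPM in WT and 33.9 to 41.4 CPM in *puchi-1* at 18 hpg. The lesion of the allele is not given in the sources used here, and the higher counts in *puchi-1* therefore do not check the genotype by absence of the transcript. The 7 LRP genes listed, PUCHI among them, summed to 54.5 to 98.9 CPM in the bends and to 39.8 to 59.2 CPM in the ‘No LR’ libraries.

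The outer and barrier tissues of the young root are built by wall proteins that are laid down as cells differentiate. Dirigent proteins steer the coupling of phenolic radicals, class III peroxidases make such radicals and cross-link wall polymers, and extensins form cross-linked glycoprotein scaffolds that root hairs need. The Casparian strip, a lignin ring in the endodermis, needs dirigent-like and peroxidase proteins, while hair growth in the epidermis draws on extensins and expansins. By their RefSeq product names, 9 members were dirigent-like proteins, 9 extensin-like or hydroxyproline-rich proteins, 8 peroxidases, 6 protein kinases, 5 lipid-transfer or 2S albumin proteins, 5 oxidoreductases, 4 CAP superfamily proteins, 4 enzymes of wall polysaccharides, 3 Ole e 1 and extensin family proteins, 3 HSP20-like chaperones, 3 remorins, 3 transporters, 2 vacuolar calcium-binding proteins, 1 bHLH transcription factor, 10 uncharacterized proteins, 1 pseudogene and 24 others. Of the 7949 genes that could have been chosen, 13 were dirigent-like, and 9 of those were members (69.2%). The corresponding counts were 4 of 5 for CAP proteins, 8 of 33 for peroxidases, 5 of 23 for lipid-transfer proteins, 9 of 58 for extensin-like proteins and 6 of 277 for kinases. They were 2 of 3 for vacuolar calcium-binding proteins, 3 of 12 for HSP20-like proteins, 3 of 14 for remorins and 10 of 634 for uncharacterized proteins. Over all classes the choice took 100 of the 7949. These shares describe which classes the choice took up and were not tested.

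The members' own promoters were compared for elements known from root genes. The root hair element (RHE), a motif found upstream of genes expressed in root hair cells, occurred in 5% of the members between 250 bases before and 50 bases after the annotated start, on either strand, against 0.868% of the 7947 unnamed genes at 5 CPM or more with a promoter in the table and 0.781% of 37897 genes of the 5 chromosomes. The 250 bases before the start of these 5 members are printed because they carry every RHE match among the members. The sequences are from RefSeq (TAIR10.1) and run 5′ to 3′ on the strand of the gene, with the match in capitals.
AT3G09925 (Ole e 1 and extensin family, chr3:3052851-3053100, minus strand): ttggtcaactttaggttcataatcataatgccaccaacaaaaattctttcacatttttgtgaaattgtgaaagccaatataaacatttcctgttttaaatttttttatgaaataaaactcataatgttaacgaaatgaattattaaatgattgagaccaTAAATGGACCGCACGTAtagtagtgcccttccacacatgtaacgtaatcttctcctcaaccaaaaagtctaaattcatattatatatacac
AT2G47530 (Ole e 1 and extensin family, chr2:19503921-19504170, plus strand): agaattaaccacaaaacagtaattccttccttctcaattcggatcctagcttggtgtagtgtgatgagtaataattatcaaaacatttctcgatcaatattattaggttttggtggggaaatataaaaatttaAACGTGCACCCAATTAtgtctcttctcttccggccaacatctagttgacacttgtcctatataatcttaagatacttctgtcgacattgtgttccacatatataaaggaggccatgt
AT3G48940 (remorin, chr3:18144312-18144561, minus strand): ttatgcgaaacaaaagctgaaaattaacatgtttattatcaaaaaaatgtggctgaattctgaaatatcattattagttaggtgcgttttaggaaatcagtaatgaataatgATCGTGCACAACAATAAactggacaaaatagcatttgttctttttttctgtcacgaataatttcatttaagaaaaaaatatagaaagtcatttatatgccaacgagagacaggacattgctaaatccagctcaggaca
AT5G26320 (TRAF-like, chr5:9237977-9238226, plus strand): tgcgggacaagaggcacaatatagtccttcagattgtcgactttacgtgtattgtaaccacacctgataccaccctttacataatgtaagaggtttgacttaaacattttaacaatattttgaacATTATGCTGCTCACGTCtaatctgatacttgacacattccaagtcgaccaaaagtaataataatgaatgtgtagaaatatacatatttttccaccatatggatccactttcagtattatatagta
AT3G12540 (unknown function, chr3:3974552-3974801, plus strand): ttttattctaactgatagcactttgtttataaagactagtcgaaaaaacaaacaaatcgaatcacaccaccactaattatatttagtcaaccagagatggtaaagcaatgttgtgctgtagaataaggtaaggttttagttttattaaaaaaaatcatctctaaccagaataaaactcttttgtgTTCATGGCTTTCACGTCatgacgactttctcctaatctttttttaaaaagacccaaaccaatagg
In AT3G09925, AT5G26320 and AT3G12540 the match lay on the strand of the gene, and in AT3G48940 and AT2G47530 on the opposite strand. The matches started between 138 and 65 bases before the annotated start. The G-box CACGTG was present in 4% of the members and in 8.46% of the unnamed genes at 5 CPM or more, GCCGCC, a motif bound by AP2/ERF proteins, in 1% and 2.71%, TGTCTC, a motif bound by auxin response factors, in 15% and 13.3%, and TTGACC, a W-box sequence, in 19% and 14.97%. A match says only that the letters are there.

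**Figure D1:**
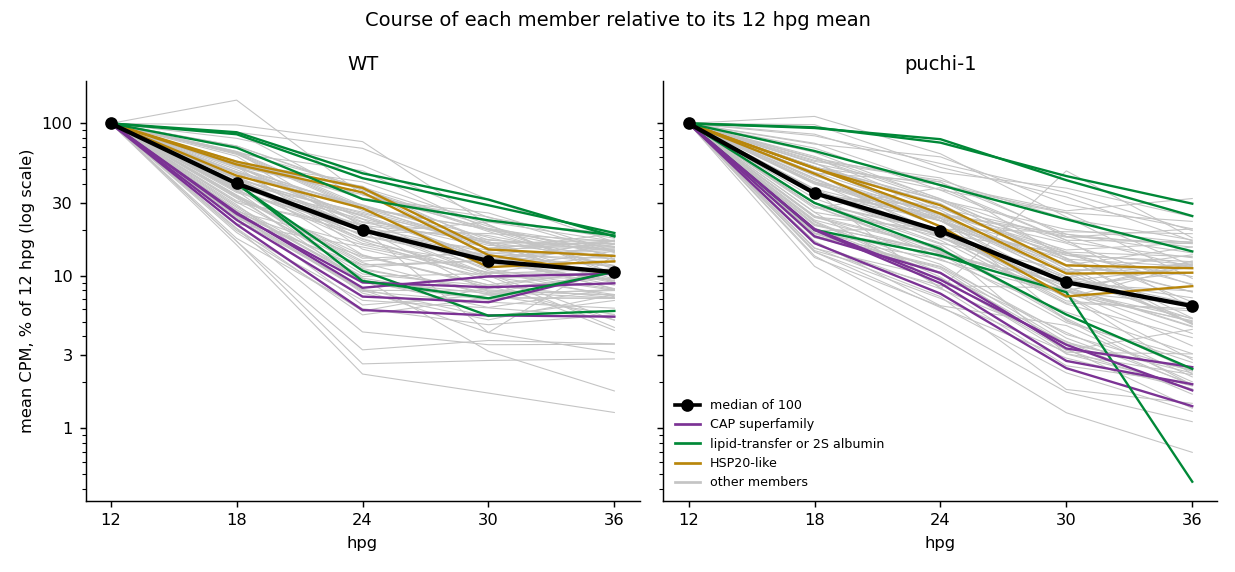
Mean CPM of each of the 100 members as a percentage of its mean at 12 hpg (log axis) against the time of harvest, for WT and *puchi-1*; the black line is the median member, and CAP, lipid-transfer and HSP20-like members are coloured. The median stood at 40.3% in WT and 34.8% in *puchi-1* at 18 hpg and at 10.6% and 6.32% at 36 hpg.

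In WT the members ran from a log2 ratio of -6.15 for AT3G55230 to -2.36 for AT3G22570. The members ranked 98 and 99, AT1G68230 and AT5G14330, both stood at -2.38, and the first genes outside were AT4G22666 and AT3G56230 at -2.35 and AT5G06990 at -2.31, so that no gap separates the last member from the next gene. The members spread over the 5 chromosomes with 25, 14, 19, 17 and 25 loci, and their transcripts had a median of 1231.5 bases, against 1741 bases for the 7949 genes. At 12 hpg in WT their mean levels lay between 5.09 and 1945 CPM with a median of 18.8. The single member with most reads, AT3G54580, held 19.9% of all counts of members in WT at 12 hpg and 22.4% in *puchi-1*, and the 10 members with most reads held 67.4% and 64.6%, shares that are not corrected for transcript length.

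At the times not used for the choice, the WT members were already low by 24 hpg. The median member stood at 40.3% of its 12 hpg level at 18 hpg, at 19.9% at 24 hpg and at 12.5% at 30 hpg. At 18 hpg, 16 members were below 25% of their 12 hpg level in WT, 51 were between 25% and 50%, 26 between 50% and 75% and 7 above 75%. In *puchi-1* the median member stood at 34.8%, 19.7%, 9.06% and 6.32% of its 12 hpg level at 18, 24, 30 and 36 hpg, and at 18 hpg 34 members were below 25%, 37 between 25% and 50%, 23 between 50% and 75% and 6 above 75%. The order of the members by how far they had gone down at 18 hpg was alike in the 2 genotypes. Across the 100 genes the log2 ratio of 18 to 12 hpg in WT and in *puchi-1* had a Pearson r of 0.91 and a Spearman rho of 0.90, while the ratio of 30 to 18 hpg had 0.48 and 0.44. These are correlations across genes, which are not replicates, and within a genotype the genes come from the same libraries. The mean level was lower at each later time for 60 members in WT, where 5.87% of all genes tested did so, and for 81 in *puchi-1*, where 6.18% did so. The WT count, the WT percentages and the correlation of the ratios of 18 to 12 hpg rest on 12 hpg libraries that the choice used. The WT count of 60 rests on the 36 hpg libraries of the choice as well. Its distance from the share of all genes therefore follows in part from the choice.

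**Figure D2:**
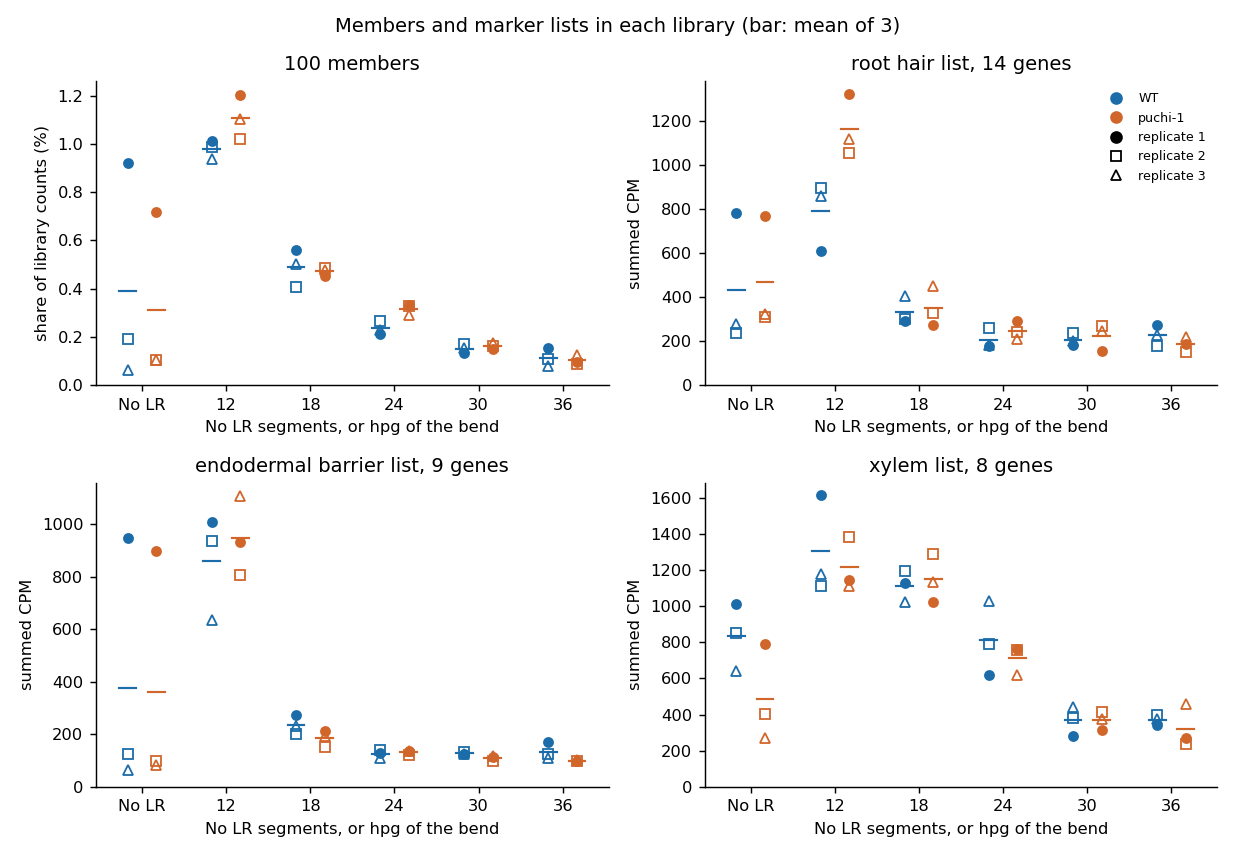
Members' share of all counts (%) and summed CPM of the root hair, endodermal barrier and xylem marker lists in each of the 36 libraries, by tissue and time; bars are means of 3 libraries, circles, squares and triangles replicates 1, 2 and 3, blue WT and orange *puchi-1*. The 12 hpg bends stand between 0.939% and 1.204% in the first panel, the 36 hpg bends between 0.0773% and 0.152%, and replicate 1 of each ‘No LR’ group stands far above the other 2.

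Taken as a share of all counts, the members went from 0.939 to 1.01% in the WT libraries of 12 hpg to 0.408 to 0.560% at 18 hpg, 0.213 to 0.267% at 24 hpg, 0.131 to 0.171% at 30 hpg and 0.0773 to 0.152% at 36 hpg. In *puchi-1* the corresponding ranges were 1.02 to 1.204%, 0.453 to 0.487%, 0.291 to 0.330%, 0.151 to 0.173% and 0.0891 to 0.124%. The genotypes did not overlap at 12 hpg and at 24 hpg, with *puchi-1* above WT both times, and overlapped at 18, 30 and 36 hpg. At 12 hpg the nearest libraries stood at 1.01% in WT and 1.02% in *puchi-1*. The WT libraries of 12 and 36 hpg were those of the choice. Genotype comparisons at these times, here and for members below, therefore rest in part on the choice. In such bulk samples fewer cells of a type and less RNA per cell cannot be told apart.

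The 4 lowest ratios of the choice belonged to dirigent-like members. The class had a summed level of 1442 to 1555 CPM in WT at 12 hpg and 1476 to 1774 CPM in *puchi-1*, and 502.6 to 707.3 and 583.8 to 752.5 CPM at 18 hpg. At 24 hpg the sums were 260.5, 261.8 and 351.3 CPM in WT and 464.1, 479.3 and 500.9 CPM in *puchi-1*, which do not overlap. Most of each of these sums was the single member AT4G11190, whose libraries are given below. Some members of the class, AT3G55230 among them, overlapped between the genotypes at 24 hpg, and others did not. AT3G55230, the dirigent-like member with the lowest ratio of all 100, had 402, 393 and 249 CPM in WT at 12 hpg, 78.3, 33.5 and 54.5 CPM at 18 hpg, 11.3, 9.92 and 2.43 CPM at 24 hpg, 5.28, 8.03 and 4.38 CPM at 30 hpg and 9.20, 3.82 and 0.169 CPM at 36 hpg. In *puchi-1* AT3G55230 had 354, 279 and 402 CPM at 12 hpg, 46.7, 29.0 and 43.6 CPM at 18 hpg, 14.6, 18.8 and 7.80 CPM at 24 hpg, 2.93, 4.39 and 5.70 CPM at 30 hpg and 1.40, 0.349 and 5.40 CPM at 36 hpg. In both genotypes every library of 18 hpg lay below every library of 12 hpg, and in the 36 hpg libraries the replicates differed from each other by more than 10-fold. AT4G11190, another dirigent-like member, went down more slowly, with 551.3, 444.1 and 626.9 CPM in WT at 12 hpg, 391, 306 and 364 CPM at 18 hpg, 177, 248.5 and 191.5 CPM at 24 hpg and 63.8, 86.2 and 67.1 CPM at 36 hpg. In *puchi-1* AT4G11190 had 632, 567 and 505 CPM at 12 hpg, 416, 362.5 and 468 CPM at 18 hpg, 330.5, 322 and 375 CPM at 24 hpg and 125.3, 71.5 and 149 CPM at 36 hpg, so that the genotypes overlapped at 12 and 18 hpg and did not overlap at 24 hpg.

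The 8 peroxidases differed in their courses. Their summed level was 885.3 to 988.8 CPM in WT at 12 hpg, 402 to 497.5 CPM at 18 hpg and 78.5 to 136 CPM at 36 hpg. AT4G26010 had 109, 175.5 and 141 CPM in WT at 12 hpg, 42.8, 19.8 and 41.1 CPM at 18 hpg and 18.8, 5.26 and 1.95 CPM at 36 hpg. In *puchi-1* AT4G26010 had 268, 205 and 230.3 CPM, 29.9, 33.9 and 50.5 CPM, and 2.49, 1.44 and 7.79 CPM at the same times, with no overlap between the times in either genotype. AT5G51890 stood near its 12 hpg level at 18 hpg in both genotypes. Its WT libraries held 218, 156 and 225 CPM at 12 hpg, 197, 191 and 198 CPM at 18 hpg, 89.0, 144 and 222 CPM at 24 hpg, 26.7, 38.2 and 64.2 CPM at 30 hpg and 18.1, 23.9 and 19.5 CPM at 36 hpg. In *puchi-1* AT5G51890 had 223, 238 and 178 CPM at 12 hpg, 206, 254 and 249 CPM at 18 hpg, 134, 149 and 120.5 CPM at 24 hpg, 40.1, 54.9 and 60.3 CPM at 30 hpg and 21.8, 10.97 and 28.5 CPM at 36 hpg. The libraries of AT5G51890 at 30 hpg lay below all those of 12 and 18 hpg in both genotypes.

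The extensin-like and hydroxyproline-rich members, wall glycoproteins, held the most counts. AT3G54580 had 1754, 2135 and 1947 CPM in WT at 12 hpg, 948, 535 and 1063 CPM at 18 hpg, 283, 427 and 352 CPM at 24 hpg, 153, 284 and 295 CPM at 30 hpg and 239.8, 160.0 and 106 CPM at 36 hpg. In *puchi-1* AT3G54580 had 2697, 2178 and 2591 CPM at 12 hpg, 767, 1068 and 939.9 CPM at 18 hpg, 549.6, 684 and 485.5 CPM at 24 hpg, 214, 269 and 295 CPM at 30 hpg and 72.1, 76.3 and 216 CPM at 36 hpg. All 3 *puchi-1* libraries of AT3G54580 lay above the 3 WT libraries at 12 and at 24 hpg, and the genotypes overlapped at 18, 30 and 36 hpg. The choice used the WT libraries of 12 and 36 hpg. The summed level of the 9 genes was 2774 to 3628 CPM in WT at 12 hpg, 868.3 to 1697 CPM at 18 hpg and 121.6 to 515.3 CPM at 36 hpg, and 3594 to 4658, 1138 to 1512 and 100.0 to 288.5 CPM in *puchi-1*. The 3 Ole e 1 and extensin family members, a related group of secreted wall proteins, stood at 32.3% of their 12 hpg level at 18 hpg in WT at the median, and the extensin-like members at 33.9%.

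The 4 CAP proteins, a secreted family that includes the pathogenesis-related protein PR1, had the lowest median level at 18 hpg of the classes with 3 or more members, at 24.4% of 12 hpg in WT. AT5G57625 had 95.2, 127 and 114 CPM in WT at 12 hpg, 32.2, 14.5 and 26.3 CPM at 18 hpg, 6.63, 11.6 and 1.80 CPM at 24 hpg and 15.1, 3.05 and 0 CPM at 36 hpg. In *puchi-1* AT5G57625 had 224, 156 and 190.4 CPM at 12 hpg, 27.7, 23.8 and 41.6 CPM at 18 hpg, 16.9, 17.6 and 8.98 CPM at 24 hpg and 0.960, 0.0654 and 6.90 CPM at 36 hpg. Its *puchi-1* libraries stood above those of WT at 12 hpg, which the choice used, and overlapped with those of WT at 18, 24 and 36 hpg.

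Lipid-transfer proteins, small secreted proteins that bind lipids, had the highest median level at 18 hpg of the classes with 3 or more members. The median of the 5 was 69.2% of the 12 hpg level in WT, with a range of 39.95% to 87.5%, and it was 53.8% for the HSP20-like chaperones and 54.4% for the remorins, which are plant-specific proteins of the plasma membrane. AT3G22620, a lipid-transfer member, had 1008, 515 and 667 CPM in WT at 12 hpg, 773, 659 and 485 CPM at 18 hpg, 299.6, 389 and 341 CPM at 24 hpg, 261, 233.5 and 198 CPM at 30 hpg and 147, 120.4 and 129 CPM at 36 hpg. In *puchi-1* AT3G22620 had 577.5, 580.5 and 508 CPM at 12 hpg, 579, 592 and 383.5 CPM at 18 hpg, 486, 385 and 441 CPM at 24 hpg, 249.5, 201 and 255.5 CPM at 30 hpg and 122, 137 and 152 CPM at 36 hpg. The libraries of AT3G22620 at 12 and 18 hpg overlapped in both genotypes and those at 36 hpg lay below those of all earlier bends. AT5G20970, an HSP20-like member, had 58.1, 51.7 and 60.9 CPM in WT at 12 hpg, 45.7, 23.8 and 26.2 CPM at 18 hpg, 12.9, 19.7 and 31.7 CPM at 24 hpg and 7.80, 7.93 and 9.65 CPM at 30 hpg. In *puchi-1* AT5G20970 had 60.8, 56.2 and 51.2 CPM, 35.2, 22.5 and 27.4 CPM, 16.9, 19.7 and 12.1 CPM and 6.43, 7.13 and 6.08 CPM at the same times, and at 30 hpg the *puchi-1* libraries lay below those of WT.

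**Figure D3:**
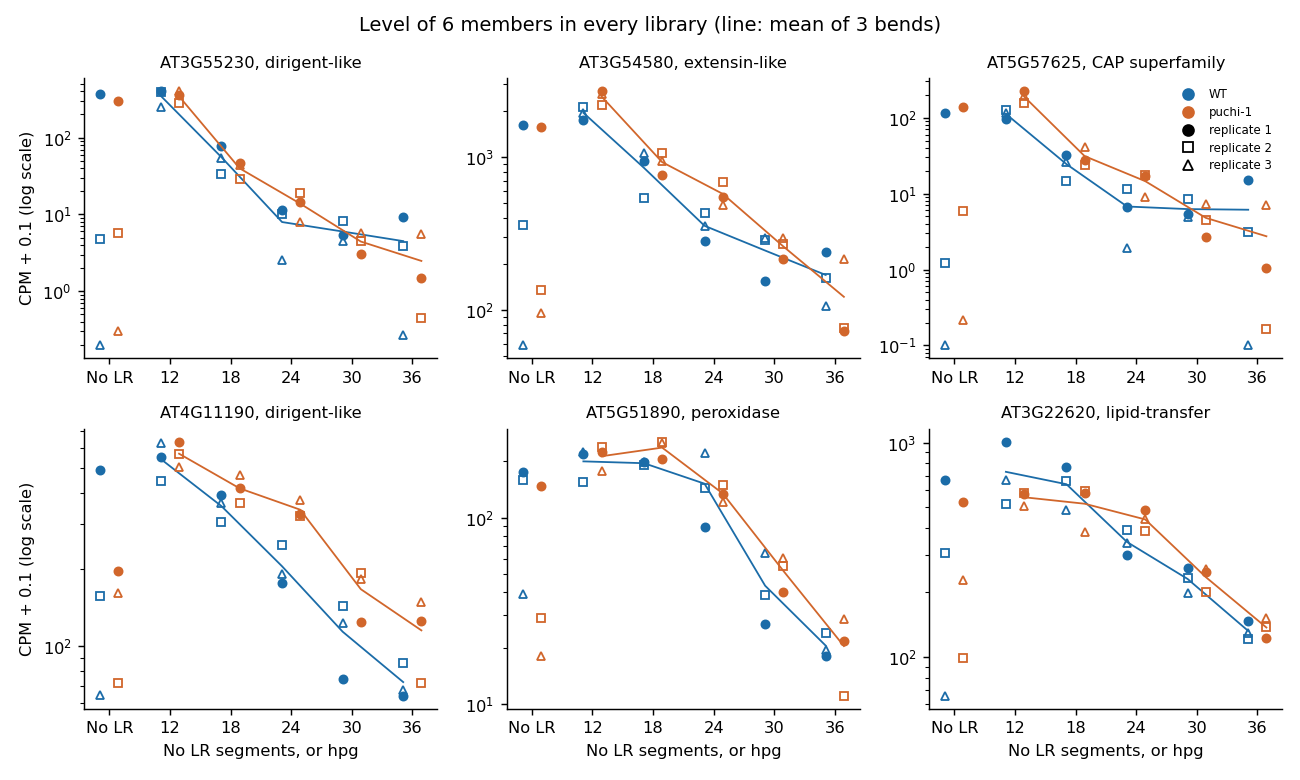
CPM plus 0.1 (log axis) of AT3G55230 and AT4G11190 (dirigent-like), AT3G54580 (extensin-like), AT5G57625 (CAP), AT5G51890 (peroxidase) and AT3G22620 (lipid-transfer) in each of the 36 libraries, by tissue and time. Points are libraries, and lines join the means of 3 libraries over the bend times. AT5G51890 and AT3G22620 still stand near their 12 hpg level at 18 hpg, at which AT3G55230 and AT5G57625 stand at 15.9% and 21.7% of theirs in WT.

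The question whether the same genes went down in *puchi-1*, whose libraries had no part in the choice, was tested between 36 and 12 hpg. In *puchi-1*, 99 of the 100 members fell and none rose (edgeR quasi-likelihood test, Benjamini-Hochberg adjusted p under 0.05 over 25862 genes), while 16.5% of all genes tested fell and 17.1% rose, and 20.1% of the unnamed genes at 5 CPM or more fell. The median log2 fold change of the members was -4.16, a 17.8-fold lower level, against 0.06 over all genes tested. In the fit of the bends alone 99 passed as well, where 19.2% of all genes did. Every library of 36 hpg lay below every library of 12 hpg for 99 members, which held for 16.3% of all genes. Without 1 of the 6 libraries compared, between 95 and 99 members passed, and when the rule took 50 or 200 genes in place of 100 the share that fell was 100% and 95%.

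By class, the fall in *puchi-1* between 12 and 36 hpg was deepest for the CAP proteins (median log2 fold change -5.82), the Ole e 1 and extensin family (-5.75), the dirigent-like proteins (-5.36), the extensin-like proteins (-5.21) and the kinases (-4.86), and less deep for the HSP20-like proteins (-3.43), the wall polysaccharide enzymes (-3.28), the remorins (-3.18), the lipid-transfer proteins (-2.96) and the vacuolar calcium-binding proteins (-2.62). Each of these medians rests on between 2 and 9 genes and the differences between classes were not tested. AT3G55230 fell by 7.29 on the log2 scale (SE 1.9, adjusted p = 0.0043), AT4G26010 by 6.04 (SE 1.4, 0.00173), AT5G57625 by 6.27 (SE 1.85, 0.0103) and AT3G54580 by 4.53 (SE 0.888, 0.000422), all from the edgeR fit. AT5G51890 fell by 3.54 (SE 0.583, adjusted p = 9.36e-05), AT4G11190 by 2.46 (SE 0.457, 0.000265) and AT3G22620 by 2.19 (SE 0.5, 0.00153) in the same edgeR fit. AT4G05170, the 1 member named as a transcription factor, of the bHLH family, fell by 3.94 (SE 0.886, adjusted p = 0.00134, edgeR). The member with the lowest fitted value, AT1G62510 of the lipid-transfer class, had 4.47, 5.28 and 11.2 CPM in *puchi-1* at 12 hpg and 0, 0.0436 and 0.0494 CPM at 36 hpg, so that its -7.79 rests on very few reads. The smallest fall was that of AT1G44608, an uncharacterized protein, by 1.81 (SE 0.534, adjusted p = 0.0104, edgeR), with 19.1, 16.7 and 16.4 CPM at 12 hpg and 7.24, 5.56 and 3.98 CPM at 36 hpg in *puchi-1*.

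**Figure D4:**
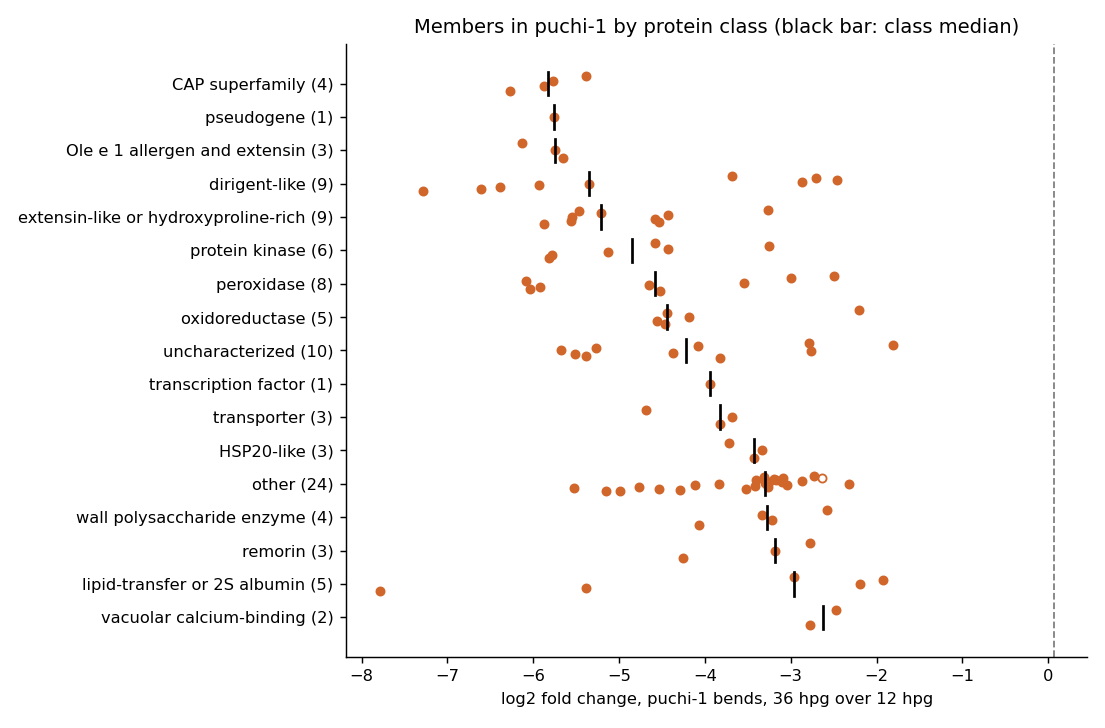
Log2 fold change of each member between 12 and 36 hpg in *puchi-1* from the edgeR fit of 36 libraries, by annotation class; black bars are class medians, the dashed line is the median of all genes tested (0.06), and the open point is the member that did not pass. All 100 points lie below 0, between -7.79 and -1.81.

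The exception was AT3G44870, named as an S-adenosyl-L-methionine-dependent methyltransferase. It had 0.967, 4.17 and 8.51 CPM in *puchi-1* at 12 hpg and 1.27, 0.174 and 0.971 CPM at 36 hpg, with a log2 fold change of -2.64 (SE 1.36, adjusted p = 0.137, edgeR), and the 2 groups overlapped. In WT at 12 hpg AT3G44870 had 1.62, 8.49 and 14.5 CPM. Its ‘No LR’ libraries held 6.08, 4.78 and 5.85 CPM in WT and 2.06, 7.28 and 12.7 CPM in *puchi-1*. Replicate 1 was the lowest at 12 hpg in both genotypes.

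In the first step, between 12 and 18 hpg, the median member of *puchi-1* had a log2 fold change of -1.63, and every library of 18 hpg lay below every library of 12 hpg for 91 members, against 8.65% of all genes. In the fit of 36 libraries none of the members passed between these times, where 0.259% of all genes were lower and 0.36% higher, with 32 members lower and none higher at an unadjusted p under 0.05 (7.94% of all genes lower and 8.14% higher), and with DESeq2 3 passed. In the fit of the bends alone 71 members fell, where 5.6% of all genes did. The replicate numbers of these groups marked libraries that deviated together, and with the number as a block 1 member passed. AT5G51890 had the highest value, 0.04 (95% interval -1.04 to 1.13), and AT3G55230 had -3.23 (SE 1.56, adjusted p = 0.308, edgeR) in the fit of 36 libraries.

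Between 18 and 30 hpg, times outside the choice in WT, the members went on to lower levels in both genotypes. In WT the median log2 fold change was -1.84, every library of 30 hpg lay below every library of 18 hpg for 97 members (12.6% of all genes), and 10 members fell and none rose, where 1.6% of all genes fell and 2.11% rose (edgeR, adjusted p over all genes). At an unadjusted p under 0.05, 57 members were lower, against 10.1% of all genes. In the fit of the bends alone 77 fell, where 7.98% of all genes did. The count of 10 came down to between 0 and 2 when any of the 6 libraries was left out, and was 34 with DESeq2. The members that fell in the fit of 36 libraries were AT5G62420, an NAD(P)-linked oxidoreductase, AT5G51890 and AT1G71695, both peroxidases, AT3G22600, a lipid-transfer protein, AT4G11190 and AT5G42500, both dirigent-like, AT3G17380, a TRAF-like protein, AT5G11620, a SWIM zinc finger protein, AT1G68230, a reticulon family protein, and AT4G33666, an uncharacterized protein. AT5G51890 fell by 2.21 on the log2 scale in WT (SE 0.552, adjusted p = 0.0276, edgeR) and AT3G22600 by 1.60 (SE 0.4, adjusted p = 0.028, edgeR).

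In *puchi-1* the median log2 fold change between 18 and 30 hpg was -1.998 and every library of 30 hpg lay below every library of 18 hpg for 92 members (13% of all genes). No member passed in the fit of 36 libraries, where 0.321% of all genes were lower and 0.437% higher, with 52 lower and none higher at an unadjusted p under 0.05 (7.18% of all genes lower and 8.69% higher) and 23 with DESeq2. In the fit of the bends alone 75 fell, where 5.25% of all genes did. AT5G51890 had -2.19 (SE 0.551, adjusted p = 0.053, edgeR) in *puchi-1*, beside its -2.21 in WT. Whether the step between 18 and 30 hpg differed between the genotypes was tested directly, and no member passed in either fit, nor did any of the 25862 genes (edgeR). At an unadjusted p under 0.05, 1 member, with the higher value in *puchi-1*, passed in the fit of 36 libraries (1.57% of all genes lower and 0.94% higher) and 4 higher ones in that of the bends (1.5% of all genes higher), and none with DESeq2. The 1 member was AT5G62420, with 30.1, 14.7 and 4.27 CPM in WT at 18 hpg and 2.65, 1.37 and 3.03 CPM at 30 hpg, and 13.6, 18.6 and 5.63 CPM and 6.96, 4.25 and 5.57 CPM in *puchi-1*. Its difference in change was 1.66 on the log2 scale (SE 0.802, adjusted p = 1, edgeR), and the WT libraries of 18 hpg spanned 4.27 to 30.1 CPM.

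The levels of the members in the 2 genotypes were compared over 18, 24 and 30 hpg, leaving out the WT libraries of the choice. No member differed in the fit of 36 libraries (edgeR, adjusted p over all genes), where 2% of all genes were lower and 2.76% higher in *puchi-1*, and none did at an unadjusted p under 0.05 (9.33% of all genes lower, 11% higher) or with DESeq2. The median log2 difference was 0.07, and with the month in the titles as a covariate it was -0.287. Libraries without a date formed 1 level of this covariate. That level put replicates 1 and 3 of *puchi-1* at 24 hpg together with replicate 1 of both ‘No LR’ groups. The -0.287 is therefore not adjusted for the month alone, and the sign of the median depended on this setting. The members ranged from -0.55 to 1.16, and the 95% interval lay within 1 log2 unit either way for 27 of them. In the fit of the bends alone, where 5.38% of all genes were lower and 6.77% higher, 4 members were higher and 2 lower in *puchi-1*, and the interval lay within 1 log2 unit for 75. The higher ones were AT5G26320, a TRAF-like protein (1.16, 95% interval 0.50 to 1.83, adjusted p = 0.0199, edgeR), AT1G43140, a cullin family protein (0.64, 0.26 to 1.01, adjusted p = 0.0243, edgeR), and the dirigent-like AT4G11190 (0.48, 0.19 to 0.76, adjusted p = 0.0268, edgeR) and AT5G42500 (0.34, 0.17 to 0.51, adjusted p = 0.0102, edgeR). The lower ones were the peroxidase AT1G71695 (-0.41, -0.63 to -0.19, adjusted p = 0.0137, edgeR) and the ankyrin repeat protein AT5G04680 (-0.43, -0.72 to -0.14, adjusted p = 0.0475, edgeR). These shares of members, in either direction, are not above those of all genes. For AT1G43140 and AT5G04680, 7.80% and 21.2% of the transcript matched another gene at 95% identity or more, so that their counts could be split with that gene.

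AT5G26320, which is also among the RHE-bearing members printed above, had 3.87, 1.48 and 2.22 CPM in WT and 2.60, 4.79 and 3.53 CPM in *puchi-1* at 18 hpg, 1.02, 0.309 and 0.680 against 1.57, 1.896 and 2.08 CPM at 24 hpg, and 0.233, 0.190 and 0.245 against 1.26, 0.432 and 0.334 CPM at 30 hpg. The genotypes overlapped at 18 hpg and not at 24 and 30 hpg. AT5G42500 had 31.5, 36.6 and 29.4 CPM in WT at 24 hpg and 56.6, 54.3 and 51.6 CPM in *puchi-1*, and at 30 hpg 19.7, 22.2 and 18.4 against 27.6, 24.6 and 21.7 CPM. AT1G71695 had 39.5, 29.5 and 34.9 CPM in WT at 18 hpg and 25.7, 28.03 and 26.4 CPM in *puchi-1*, and 24.0, 23.6 and 33.9 against 17.1, 16.8 and 18.8 CPM at 24 hpg, with no overlap at either time.

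**Figure D5:**
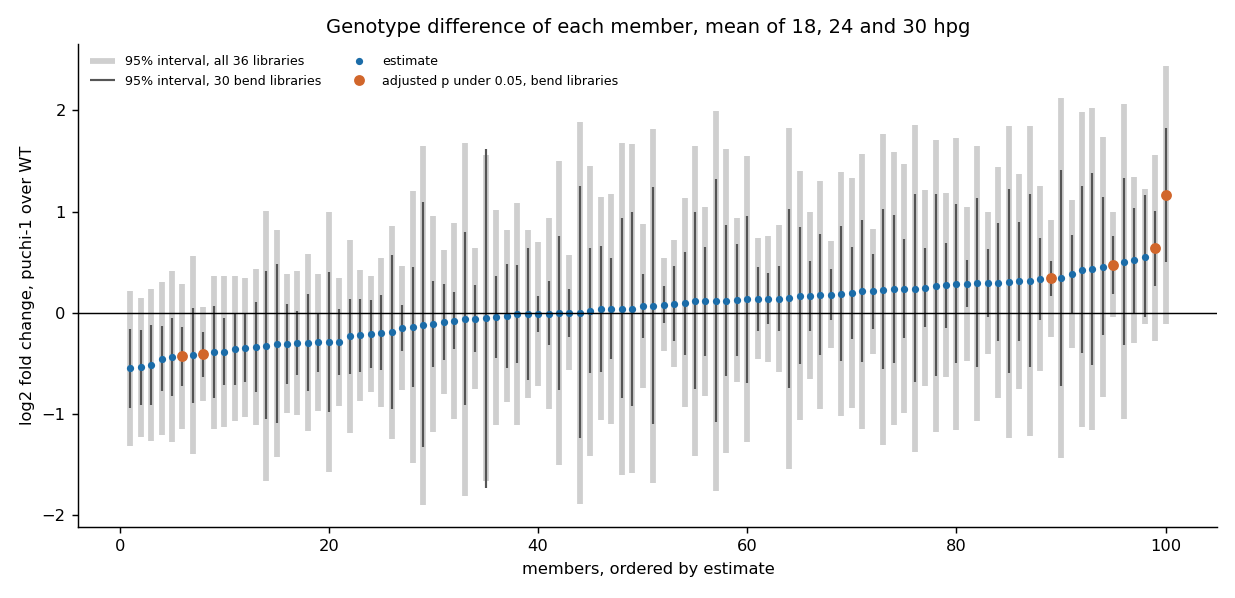
Log2 difference between *puchi-1* and WT over 18, 24 and 30 hpg for each member, ordered by its value, with 95% intervals from the fit of 36 libraries (grey) and of the 30 bend libraries (dark); orange members had an adjusted p under 0.05 in the latter. All grey intervals include 0, and 6 members are orange.

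Taken time by time, no member differed between the genotypes at 18 hpg (0.162% of all genes lower and 0.228% higher in *puchi-1*), at 24 hpg (0.464% and 0.186%) or at 30 hpg (0.29% and 0.193%) in the fit of 36 libraries (edgeR). At an unadjusted p under 0.05 none passed at 18 hpg (3.67% of all genes lower, 6.51% higher) or 24 hpg (7.73% and 6.42%), and 1 was higher at 30 hpg (2.76% and 3.24%), AT5G62420 (1.24, SE 0.579, adjusted p = 0.813, edgeR). The median log2 difference was -0.10 at 18 hpg, 0.42 at 24 hpg and -0.18 at 30 hpg, and in the fit of the bends alone 1 member, AT5G42500, was higher at 24 hpg (0.71, adjusted p = 0.00773, edgeR), where 1.21% of all genes were. At 24 hpg the titles give the genotypes no month in common and leave replicates 1 and 3 of *puchi-1* undated. With the month as a covariate the median at 24 hpg was -1.05, where undated libraries shared 1 level with replicate 1 of ‘No LR’. At that time the summed lipid-transfer members were 579.5 to 701.3 CPM in WT and 752.9 to 875.1 CPM in *puchi-1*, again without overlap. Most of these sums came from AT3G22600 and AT3G22620. AT3G22600 had 266.3, 298.7 and 270.5 CPM in WT and 367.9, 349.2 and 356.1 CPM in *puchi-1* at 24 hpg. The libraries of AT3G22620 overlapped between the genotypes at that time.

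The mature reference held the members at levels that depended on the library. AT3G55230 had 365, 4.70 and 0.0975 CPM in the 3 WT ‘No LR’ libraries and 299.7, 5.62 and 0.201 CPM in those of *puchi-1*, so that replicate 1 was near the level of 12 hpg bends in both genotypes and the others were far below. AT3G54580 had 1622, 358 and 58.3 CPM in WT and 1566, 135 and 94.8 CPM in *puchi-1*. In the bends of *puchi-1* at 12 hpg, 33 members were higher than in its ‘No LR’ segments and none lower (edgeR, adjusted p over all genes), where 10.6% of all genes were higher and 14.2% lower, with a median log2 difference of 1.896. The count was 46 with DESeq2. It was 99 without replicate 1 of the ‘No LR’ segments (15.1% of all genes higher), with a median of 4.03, and 6 and 8 without replicate 2 or 3 (5.21% and 6.89%). The titles give these last libraries of *puchi-1* the same number and date and mark replicate 3 as a repeat (bis), so that they may come from 1 harvest. Their counts differed beyond sampling noise, with a chi-square per gene of 62 where pairs of replicates in all groups had 22.6 to 318, and they were kept as 2 replicates. Without replicate 1, 2 or 3 of 12 hpg the count was 14, 17 or 21 (6.14%, 8.53% and 8.5%). These groups also carried paired numbers, and with the replicate number as a block 57 members passed, where 12% of all genes did. AT2G25150, an HXXXD-type acyl-transferase, had 21.6, 4.43 and 7.11 CPM in the *puchi-1* ‘No LR’ libraries and 147, 135 and 84.0 CPM in the bends of 12 hpg, a difference of 3.53 on the log2 scale (SE 0.675, adjusted p = 0.000735, edgeR). For AT4G11190 the libraries held 197, 72.0 and 161 CPM and then 632, 567 and 505 CPM, a difference of 2.04 (SE 0.450, adjusted p = 0.00221, edgeR). Neither gene's groups overlapped.

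Between the genotypes, no member differed in the ‘No LR’ segments (edgeR, 0.588% of all genes lower and 0.51% higher in *puchi-1*), with 3 members lower at an unadjusted p under 0.05 (7.33% of all genes lower and 6.6% higher), AT2G25150, AT2G34810 and AT4G11210, and none with DESeq2. The median log2 difference was -0.35. Without replicate 1 of *puchi-1* it was -2.59 and 34 members were lower, where 2.59% of all genes were. Without replicate 1 of WT it was 1.71 and 4 were higher, where 0.553% of all genes were, and without replicate 2 or 3 of *puchi-1* it was 0.079 and 0.092, so that the direction rests on which of these libraries is present. Without replicate 3 of WT 5 were lower, where 3.13% of all genes were.

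Most genes of the root hair, endodermal barrier and xylem lists moved with the members. The 14 genes of the root hair list, which included RHD6, RSL4 and EXPA7, summed to 609 to 895 CPM in WT at 12 hpg and 178 to 272 CPM at 36 hpg, and to 150 to 220 CPM in *puchi-1* at 36 hpg. Much of the later sums was CSLD3, with means of 139 and 129 CPM in WT and *puchi-1* at 36 hpg. In the ‘No LR’ segments CSLD3 had means of 189 and 219 CPM. In *puchi-1* 12 of the 14 fell between 12 and 36 hpg, with a median log2 fold change of -4.92, and PRP1 and CSLD3 did not pass. Of the 9 endodermal barrier genes, among them CASP1 to CASP5, ESB1 and PER64, 8 fell, with a median of -5.42, and MYB36 did not pass. Their sum went from 634 to 1010 CPM to 109 to 170 CPM in WT and from 807 to 1110 CPM to a median of 99.8 CPM in *puchi-1*. At 36 hpg GSO1 alone had means of 86.3 and 59.5 CPM in WT and *puchi-1*, and CASP1 had 5.75 and 2.56 CPM. All 8 xylem genes, including VND7 and LAC4, fell in *puchi-1*, with a median of -1.88. Of 10 suberin genes, which also mark the endodermis, 9 rose and 1 fell in the same comparison. Of 8 cell cycle genes 1 fell, and of the 7 LRP genes 4 fell and 1 rose. Both non-hair epidermis genes, GL2 and WER, fell in *puchi-1*, with a median of -1.95. In WT their means at 12 and 36 hpg were 7.41 and 4.62 CPM for GL2 and 2.12 and 2.81 CPM for WER. None of the 3 root cap genes passed in *puchi-1* (median -1.25). The 1 cortex gene, CO2, had -2.88 and did not pass, with a mean of 0.91 CPM at 12 hpg in *puchi-1*. Of 4 phloem genes 1 rose, of 6 circadian clock genes 1 rose, and of 4 shoot photosynthesis genes none passed. The root hair and endodermal barrier lists also set replicate 1 of the ‘No LR’ libraries apart. The barrier list summed to 947 and 897 CPM in replicate 1 of WT and *puchi-1* and to 64.1 to 123.4 CPM in the other 4 libraries, and the root hair list to 783 and 765 CPM and to 235.2 to 325 CPM. The suberin list did not separate it, with 1101 and 1627 CPM against 1314 to 3247 CPM. The part of these cell types in the members' courses was not tested.

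Each member was compared with the root hair, endodermal barrier, xylem, suberin, phloem, cell cycle and LRP lists by the Pearson r of log2 levels. The non-hair epidermis, cortex, root cap, shoot photosynthesis and circadian clock lists were left out of this comparison. The levels were those of the 30 libraries that the choice had not used, and they share depth and tissue. The level of a list was here the mean of the log2 levels of its genes, not the summed CPM given above. The r was highest with the endodermal barrier list for 43 members, with the root hair list for 39 and with the xylem list for 18. The root hair and barrier lists themselves had an r of 0.95 and so members cannot be told apart by which of these 2 was higher. With the xylem list went all 3 HSP20-like members, 2 of 3 remorins and 2 of 8 peroxidases. Across the members the median r was 0.91 with the barrier list, 0.89 with the root hair list, 0.76 with the xylem list and -0.69 with the suberin list.

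Some members lay side by side in the genome (RefSeq TAIR10.1). Lipid-transfer members AT3G22600 and AT3G22620 were adjacent on chromosome 3 with 697 bases between them, and AT3G22570 of the same class lay 4985 bases away with 2 genes between. Dirigent-like AT4G11190 and AT4G11210 lay 5260 bases apart on chromosome 4 with 1 gene between, and AT5G42500 and AT5G42510 2916 bases apart on chromosome 5 with 2 genes between. Extensin-like AT4G08400 and AT4G08410 lay 13444 bases apart on chromosome 4, and had 23.9, 48.4 and 41.3 CPM and 32.1, 63.2 and 58.0 CPM in WT at 12 hpg. Neighbours of 1 class can share reads, and none of these neighbours had a stretch of at least 100 bases at 95% identity or more with another gene; shorter stretches were not searched. The CAP member AT5G57625 lay 1199 bases from MYB36, an endodermal transcription factor, which had a log2 fold change of 0.18 between 12 and 36 hpg in *puchi-1* (adjusted p = 0.755, edgeR) beside the -6.27 of AT5G57625. Members AT1G62480, a vacuolar calcium-binding protein, and AT1G62510 lay on either side of the cortex gene CO2 on chromosome 1.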

How the data were processed

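RNA was sequenced by the authors from a stranded mRNA kit in paired-end mode. Reads were demultiplexed with bcl2fastq (version 2.20), aligned to the NCBI TAIR10.1 genome with TopHat2 2.1.1, which ran Bowtie2 2.3.5.1, dropped at over 6 mismatches, sorted with SAMtools 1.9 and counted per gene by strand with featureCounts 2.0.0. The deposited values are raw counts per gene, and replicate numbers follow the source names, from which the numbers in the titles differ. The titles date many replicates of a group to different days or months, and nothing says that all came from separate cultures, so that p-values measure the spread between these libraries.

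CPM was the count over the library total. Fold changes came from 1 edgeR (version 4.0.16, R version 4.3.3) quasi-likelihood fit of 12 groups with TMM scaling and 24 residual degrees of freedom, on the 25862 genes with a locus and at least 15 reads over 36 libraries. Rows without a locus held 0.0700 to 0.362% of counts and stayed out of the tests. Adjusted p-values are over all genes tested. Alternatives were DESeq2 (version 1.42.0), RLE scaling, other filters, the replicate number as a block, the month in the titles, fewer libraries and left-out libraries. For the month, libraries without a date formed 1 level and years were not told apart. The undated level held replicate 1 of both ‘No LR’ groups and of WT at 36 hpg, and replicates 1 and 3 of *puchi-1* at 24 hpg. The edgeR fit was also run on simulated counts, with 1 spread for all genes and changes placed in *puchi-1* at 36 hpg only. The simulation held neither an outlying ‘No LR’ replicate nor replicate numbers that deviate together, and so does not cover these features of the data. The members, gene lists and tests were chosen with earlier results of these data known. Named members are the 10 lowest by the rule, the 10 with most CPM, the 5 lowest adjusted p of each comparison, those at the limit of the choice, the 3 highest per class and chromosomal neighbours. Members named for an RHE match, or because they passed only in the fit of bends, were chosen after their values were seen. Same-numbered libraries deviated together (correlation of deviations from the group means above 0.1 in all 3 pairs) for some of the groups tested against each other. These were 12 and 18 hpg of *puchi-1* (0.42, 0.14 and 0.27), 12 hpg and ‘No LR’ of *puchi-1* (0.21, 0.21 and 0.20) and the genotypes at 18 hpg (0.62, 0.31 and 0.66). The others did not meet this limit in all 3 pairs, among them the genotypes at 30 hpg (0.34, 0.49 and 0.05) and in ‘No LR’ segments (0.75, -0.08 and 0.65). Groups not tested against each other, such as 12 and 18 hpg of WT, were not examined for it. Sequences, product names and positions are from RefSeq TAIR10.1, and near-identical transcripts were found with BLAST+ (version 2.17.0). Intervals cover 95%.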

Additional observations from a re-analysis of the deposited data

How the results depend on the processing

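The count of members that fell between 12 and 36 hpg in *puchi-1* was 99 or 100 under every alternative that kept all libraries compared. Other counts differed between fits. For 30 against 18 hpg in WT 10 members became 34 with DESeq2, 34 with the month as covariate, 77 with the bends alone and 93 with only the libraries compared. For 30 against 18 hpg in *puchi-1* none became 23 with DESeq2, 2 with filterByExpr, 1 with the month, 75 with the bends alone and 87 with only the libraries compared. For 18 against 12 hpg in *puchi-1* none became 3 with DESeq2, 20 with the month, 71 with the bends alone and 88 with only the libraries compared. The members higher in *puchi-1* over 18, 24 and 30 hpg became 4 with the bends alone and 4 with only the libraries compared, and the lower ones 2 and 1. For 12 hpg against ‘No LR’ of *puchi-1*, 33 became 96 with the month and 4 with only the libraries compared. The undated level of the month held replicate 1 of these ‘No LR’ libraries. The cause of these differences was not tested. With the replicate number as a block the counts were 57 for 12 hpg against ‘No LR’ of *puchi-1*, 1 for 18 against 12 hpg, 6 for 30 against 18 hpg in *puchi-1* and 14 for 30 against 18 hpg in WT, and no member differed between the genotypes at 18 hpg with or without it; of these, the groups of the first 2 counts and the genotypes at 18 hpg had paired numbers. The block changed none of the remaining counts by more than 1.5 times.

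Leaving out each library in turn gave 95 to 99 members for 36 against 12 hpg in *puchi-1*, 0 to 2 for 30 against 18 hpg in WT, 0 to 0 for the other bend comparisons and the change between genotypes, 6 to 99 for those higher at 12 hpg than in ‘No LR’ segments, 0 to 34 for the genotypes in ‘No LR’ segments and 84 to 96 members kept by the rule. With other settings the rule kept 95 (1 CPM added), 93 (0.1), 77 (minimum of 10 CPM), 92 (2) and 98 (TMM scaling) of the 100. Of 919 values of the 56 named members under alternatives, 884 kept direction and side of the threshold, 33 lost the call, 2 gained it and none changed sign after a call. Members near 5 CPM rest on few reads at 36 hpg.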
